A study of Mus musculus with 11 samples.

Results

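The genes described here are the expressed long intergenic noncoding RNA (lincRNA) genes of bead-selected mouse liver cells. They were chosen by their level. A gene was included if the deposited table gives its type as lincRNA and its mean was at least 2 FPKM (a read count scaled by gene length and by library size, so levels of different genes can be set side by side) in at least 1 of 3 groups of mice. This gave 116 of the 2998 lincRNA genes of the table, which lists 43346 genes in all, and 0 genes carried the type lncRNA. Liver cells carrying the epithelial protein EpCAM were isolated magnetically, and the labels name them cholangiocytes, the lining of bile ducts. All mice were wildtype C57BL/6 males aged 14 to 16 weeks, with 1 library for each mouse. The 4 Control mice ate chow, the 4 DDC mice ate the DDC diet for 10 days, and the 3 R15 mice ate that diet for 10 days and then chow for 15 days. The DDC diet injures bile ducts and is a mouse model of cholestasis. The series as a whole asks about the transcription factor complex NF-Y in cholangiocyte proliferation.

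Long noncoding RNAs are transcribed and often spliced like messenger RNAs but carry no long open reading frame. Some stay in the nucleus as parts of nuclear bodies, such as Malat1 in nuclear speckles and Neat1 in paraspeckles. Others matter mainly as hosts whose introns or exons release small nucleolar RNAs or microRNAs, and many lie beside genes for transcription factors and are transcribed together with them. Most lincRNA genes of the mouse have no known function and carry only a clone or predicted-gene name, as did 93 of the 116 here.

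Whole reads recovered from the FPKM values came to between 49339240 and 72929107 per library. The summed level of 12 cholangiocyte markers was 8250 to 11240 FPKM in Control, 9973 to 11118 in DDC and 8904 to 9974 in R15, so the labelled cell type was present in every library. The mixture of other cells differed between groups. The summed level of 14 macrophage markers was 147 to 178 FPKM in Control, 1506 to 2690 in DDC and 163 to 850 in R15, where R15 2 had the 850, and 12 of the 14 markers rose in DDC against Control. The sum over 12 endothelial markers was 104 to 461 in Control, 29.8 to 66.2 in DDC and 66.6 to 222 in R15. The sum over 19 hepatocyte markers was 3234 to 4003 in Control, 1248 to 1906 in DDC and 2069 to 2870 in R15. Transcripts of pancreatic acinar cells summed to at least 1046 FPKM in Control 1, Control 2, Control 3, DDC 1 and R15 3 and to at most 11.6 in the other libraries. In bulk RNA, fewer cells of a type and less RNA per cell cannot be told apart.

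Most of the 116 genes were low. The highest of a gene's 3 group means had a median of 4.67 FPKM over the genes, was under 5 for 64 of them and over 20 for 9. There were 94 genes at a mean of 2 or more in Control, 86 in DDC and 101 in R15. Of the 116, 70 reached 2 in all 3 groups, 25 in 2 groups and 21 in 1 group, with 5 only in Control, 10 only in DDC and 6 only in R15. The genes just inside the limit were 1700007L15Rik with a DDC mean of 2.0068, Gm26664 with an R15 mean of 2.0156 and 4732491K20Rik with a DDC mean of 2.0199. Just outside it were Gm16845 at 1.9952, 9230111E07Rik at 1.9933 and 2310001H17Rik at 1.9774. Genes of type antisense (87 at FPKM 2 in a group) and processed_transcript (100), among which are further long noncoding RNAs such as Gas5 and Firre, fall outside the choice.

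A few genes held most of the reads. Gm42418 (ENSMUSG00000098178, chromosome 17, 39846958 to 39848788 on mm10), a locus known to collect ribosomal RNA reads, measured 1205, 1085, 1001 and 1178 FPKM in Control, 917, 902, 1096 and 842 in DDC and 928, 742 and 992 in R15. The DDC and Control libraries overlapped, and limma's test did not pass (log2 fold change -0.25 ± 0.12 SE, adjusted p = 0.085). Malat1 followed at 140 to 298 FPKM in Control. Together these 2 genes took 64.2 to 69.5% of the reads of the 116 genes in Control, 64.4 to 67.5% in DDC and 64.6 to 67.6% in R15. The other genes at the top of the order by mean level were Gm20649, Snhg18, Tmem250-ps, RP24-468O23.2, Oip5os1, AU020206, Epb41l4aos and 1810058I24Rik. Without Gm42418, the 116 genes took 0.255 to 0.397% of a library's reads in Control, 0.212 to 0.244% in DDC and 0.322 to 0.429% in R15, so the DDC libraries lay below all the others.

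The test of each gene was limma on log2(FPKM + 1) over all 15264 genes that reached 1 FPKM in 3 or more libraries. P-values were adjusted by Benjamini-Hochberg over all of these with a threshold of 0.05. Of the 116 genes, 115 were tested. In DDC against Control, 59 lincRNA genes were lower and 26 higher, and 30 did not pass. Over all genes tested, 31.9% were lower and 33.5% higher, against 51.3% and 22.6% of the 115. Their median log2 fold change was -0.286 against 0.003 over all genes, and 77 of the 115 values lay below 0. This lean towards lower levels stands beside the choice of genes by level. A gene under 2 FPKM in some group had to differ between groups. A gene could enter through Control or R15 as well as through DDC, so the choice may favour genes that are low in DDC. The part of the choice in the lean was not tested. Among the 70 genes at 2 or more in every group, 35 were lower and 13 higher. Among the 81 tested lincRNA genes that never reached a group mean of 2, 35 were lower and 16 higher. These sets are themselves cut on the same FPKM values.

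**Figure D1:**
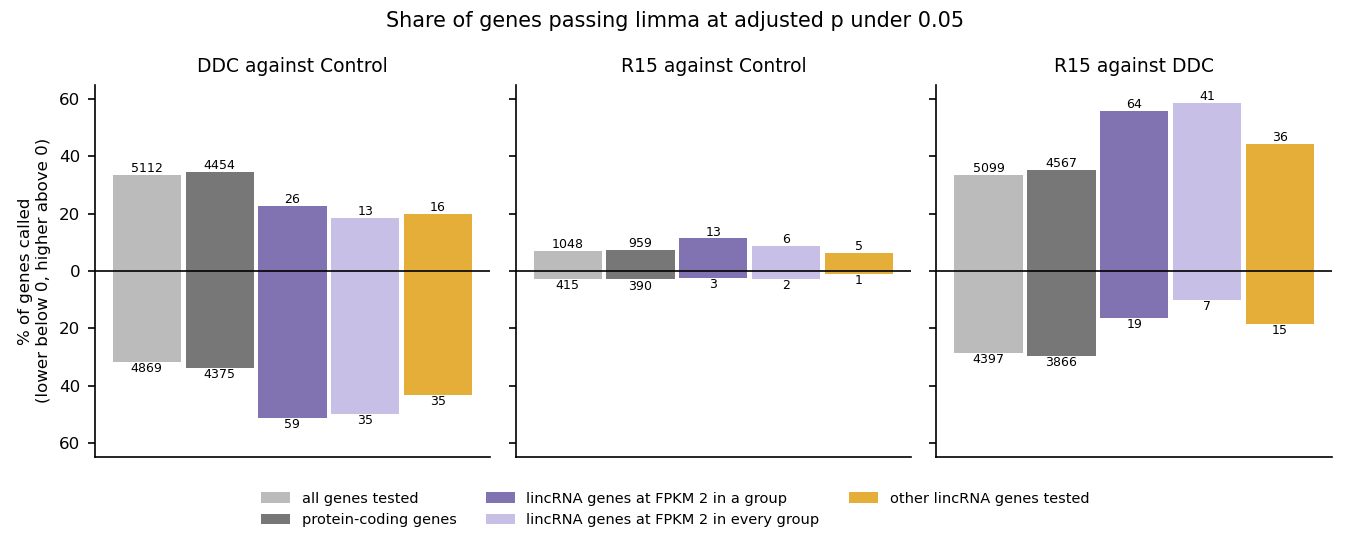
Bars show the percent of genes called by limma at an adjusted p under 0.05, with higher calls above 0 and lower calls below it and the number of genes at each bar. In DDC against Control 59 of the 115 expressed lincRNA genes were lower and 26 higher, while calls over all genes tested were split nearly evenly. In R15 against DDC 64 were higher and 19 lower.

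After 15 days back on chow the direction turned. In R15 against DDC 64 lincRNA genes were higher and 19 lower, or 55.7% and 16.5%, against 33.4% and 28.8% of all genes tested, with a median log2 fold change of 0.352 against 0.035. In R15 against Control only 13 were higher and 3 lower, or 11.3% and 2.61%, against a background of 6.87% and 2.72%. The medians there were 0.068 for the lincRNA genes and 0.045 for all genes. These 3 comparisons share libraries, so their values are given side by side and no overlap between them was counted. The R15 against Control count rests on few libraries: it was 8 higher without R15 1 and 8 without R15 2, and 0 or 1 lower without Control 1, Control 4, R15 1 or R15 2. Without the 5 libraries that held pancreatic transcripts, which leaves 1 Control library, it was 1 higher and 0 lower, and 15 were higher in DDC against Control. The split over all genes depends on the scaling: with median-of-ratios scaling 622 of all genes were higher and 804 lower in R15 against Control, in place of 1048 and 415, while the lincRNA genes stood at 11 and 3. With each library rescaled to one total they stood at 13 and 1.

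**Figure D2:**
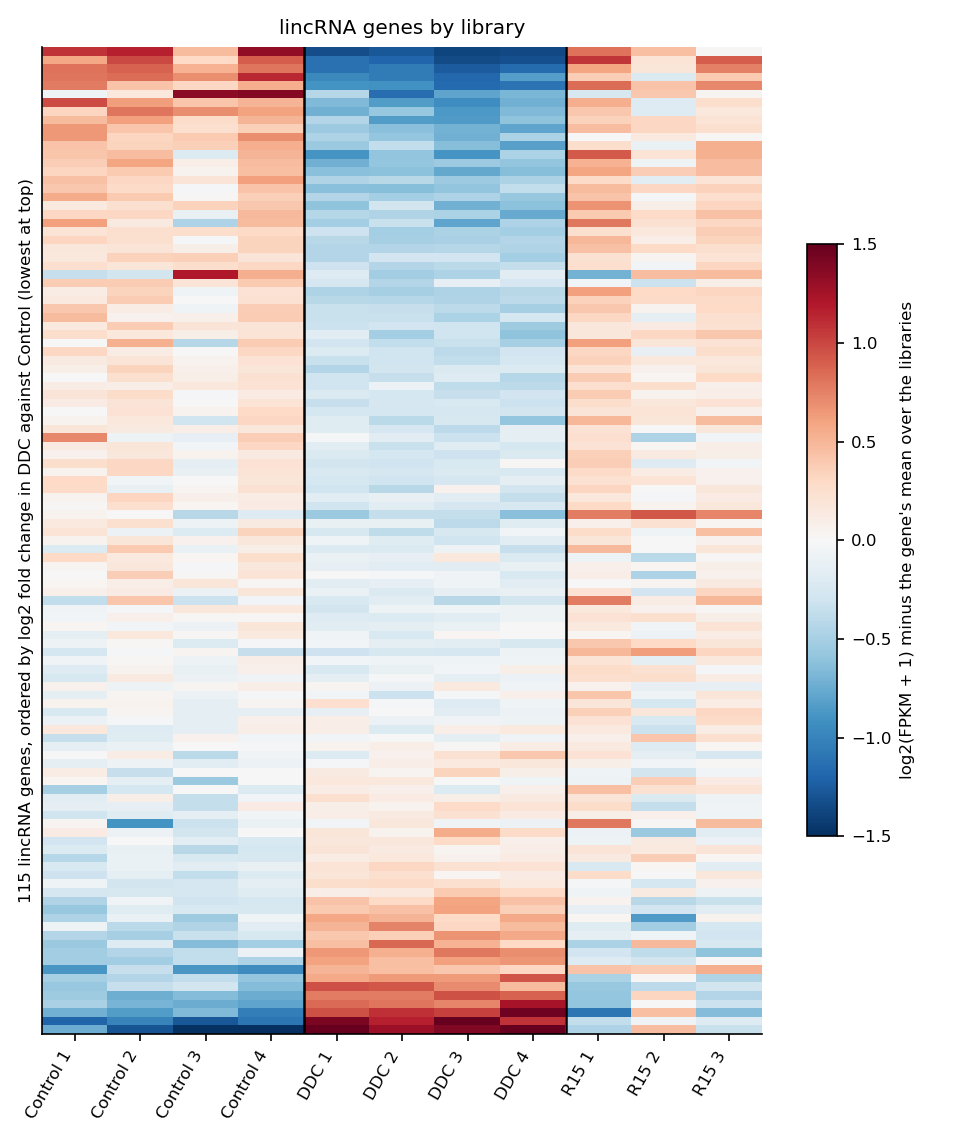
Each row is 1 of the 115 tested lincRNA genes and each column 1 library, and the colour is log2(FPKM + 1) minus the gene's own mean over the 11 libraries, clipped at 1.5 in both directions. Rows are ordered by the DDC against Control log2 fold change, from -2.35 for AI838599 at the top to 2.80 for Mir142hg at the bottom, and the DDC columns are mostly blue in the upper rows and red in the lowest rows.

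On the log2(FPKM + 1) scale the largest fall was that of AI838599 (ENSMUSG00000085180, chromosome 4, 3242055 to 3258092), a spliced lincRNA gene 56697 bases from its nearest coding gene. It measured 16.7, 17.8, 10.6 and 20.1 FPKM in Control, 2.33, 2.47, 2.21 and 2.26 in DDC and 13.7, 10.4 and 7.48 in R15. The DDC libraries lay close together and far below every other library. The log2 fold change was -2.35 ± 0.19 (SE) in DDC against Control (adjusted p = 4.2e-06) and 1.76 ± 0.21 in R15 against DDC (adjusted p = 7e-05), while R15 against Control did not pass (-0.59, adjusted p = 0.11). AI838599 has no role known with certainty.

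D630024D03Rik (ENSMUSG00000085772, chromosome 11, 31790113 to 31824524) was nearly silent in DDC. Its levels were 3.73, 3.95, 2.86 and 3.7 FPKM in Control, 0.236, 0.295, 0.129 and 0.204 in DDC and 3.06, 2.05 and 3.54 in R15. Groups did not overlap between DDC and the other libraries, and the log2 fold change was -1.90 ± 0.13 in DDC against Control (adjusted p = 1.1e-06). On this scale changes of low genes are understated, and with a pseudocount of 0.1 the value was -3.55. By group means D630024D03Rik fell further than AI838599, from 3.56 to 0.216 FPKM against 16.3 to 2.32. Gm15271 (ENSMUSG00000086148, chromosome 10, 24447490 to 24452657) measured 6.6, 9.08, 5.22 and 8.48 FPKM in Control, 1.34, 1.22, 0.999 and 1.03 in DDC and 9.68, 4.83 and 8.53 in R15. It fell by 1.93 on the log2 scale in DDC and stood at 0.04 in R15 against Control, which did not pass.

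Among the other large falls, neighbourhoods differ. A830039N20Rik, which lies over an exon of Kcnma1, the pore subunit of a calcium-activated potassium channel, changed by -1.42 ± 0.17 beside -1.91 ± 0.16 for Kcnma1. Gm11454 had a mean of 2.1 ± 0.423 FPKM in Control (SD, n = 4), 0.246 ± 0.105 in DDC (n = 4) and 1.23 ± 0.454 in R15 (n = 3) and changed by -1.31 ± 0.14. Naaladl2, a locus that the newer gene models class as protein-coding, changed by -1.15 ± 0.10. Gm15675, next to the complement regulator gene Cd55, measured 1.93, 2.42, 6.77 and 6.96 FPKM in Control, 1.27, 0.385, 0.771 and 0.897 in DDC and 1.59, 3.06 and 2.15 in R15. Control 3 and Control 4 were the high libraries for it, and these were also the high Control libraries for the endothelial list, at 461 and 329 FPKM against 104 and 137 in Control 1 and Control 2. Its log2 fold change was -1.47 ± 0.34 (adjusted p = 0.0031), and the part of the endothelial list in it was not tested.

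Several smaller falls were followed by higher values in R15. Gm29095 measured 3.18, 3.31, 1.71 and 3.44 FPKM in Control, 0.699, 1.07, 0.701 and 1.26 in DDC and 4.91, 2.6 and 3.52 in R15. It fell in DDC against Control (adjusted p = 0.0011) and changed by 1.26 ± 0.21 in R15 against DDC. Fam160a2, Fam120aos and Kantr changed by -0.61, -0.63 and -0.46 in DDC against Control and by 0.73, 0.55 and 0.56 in R15 against DDC, all past the threshold. Their R15 against Control values of 0.12, -0.08 and 0.10 did not pass.

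Among the genes that fell, 3 whose neighbours code for transcription factors are described next. These neighbours were picked out after the values were seen, as was 1010001N08Rik itself. Not all such pairs moved together. Gm14321 changed by -0.61 ± 0.10, while Cebpb, its nearest coding gene 87049 bases away, changed by 1.21 ± 0.15 (adjusted p = 4.8e-05). 1700113A16Rik, also named after its values were seen, changed by -0.70 ± 0.07. It shares exon bases with Mef2d, which stood at -0.08 ± 0.05 and did not pass. 9030622O22Rik (ENSMUSG00000086141, chromosome 2, 147944740 to 148040203), described in mouse lung as Falcor, lies 2674 bases from Foxa2 on the same strand, the gene of a forkhead factor of endoderm. It measured 18.3, 14.1, 12.9 and 15.4 FPKM in Control, 5.04, 4.99, 3.99 and 4.21 in DDC and 19, 14.1 and 17.5 in R15. Every DDC library lay below every other library. The change was -1.54 ± 0.12 in DDC against Control (adjusted p = 2.6e-06) beside -0.95 ± 0.05 for Foxa2, and in R15 against DDC 1.68 ± 0.13 beside 1.05 ± 0.06.

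Gm20649 (ENSMUSG00000093662, chromosome 9, 74848463 to 74891476) shares exon bases with Onecut1, the gene of hepatocyte nuclear factor 6, on the same strand. It measured 73.4, 76.8, 60.5 and 80.2 FPKM in Control, 37.3, 37.7, 33.9 and 37.2 in DDC and 88, 75.7 and 80.5 in R15. Onecut1 itself had means of 71.6, 35.4 and 83.1 FPKM in the 3 groups, and reads in the shared exon cannot be told apart between them. The log2 fold changes in DDC against Control were -0.97 ± 0.08 for Gm20649 and -0.99 ± 0.09 for Onecut1.

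1010001N08Rik, whose start lies 503 bases from that of Gata6 on the other strand and whose exons overlap it, measured 10.1, 8.45, 7.38 and 8.05 FPKM in Control, 3.87, 3.6, 3.32 and 3.11 in DDC and 8.73, 7.77 and 7.34 in R15. It changed by -1.08 ± 0.09 (adjusted p = 4.7e-06) beside -0.67 ± 0.06 for Gata6, the gene of a zinc finger factor of endoderm. In R15 against DDC all 3 of these lincRNA genes were higher, by log2 values of 1.68 for 9030622O22Rik, 1.13 for Gm20649 and 1.00 for 1010001N08Rik.

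RP24-468O23.2 (ENSMUSG00000103278, chromosome 3, 28729878 to 28731359) lies over an exon of Slc2a2, the gene of the glucose transporter GLUT2, which hepatocytes express strongly. It measured 35, 35.7, 32.3 and 43.9 FPKM in Control, 9.53, 8.92, 8.12 and 10.6 in DDC and 25.6, 16.7 and 26.1 in R15. Every R15 library lay between the DDC and the Control libraries. The log2 fold change was -1.87 ± 0.14 in DDC against Control (adjusted p = 2.6e-06), beside -1.54 ± 0.14 for Slc2a2, and -0.68 ± 0.16 in R15 against Control (adjusted p = 0.027). The latter call is lost without Control 1, Control 4 or R15 2, with log2 values of -0.70 to -0.48 and adjusted p of 0.051 to 0.055. Without the 5 libraries that held pancreatic transcripts the value was -1.05 and did not pass. The hepatocyte sum was likewise lowest in DDC and, in every R15 library, below Control. The place of R15 below Control rests on Alb, the albumin gene. The other hepatocyte markers summed to 622 to 886 FPKM in Control, 405 to 633 in DDC and 637 to 880 in R15. Without Alb the range was thus still lowest in DDC, but it overlapped with that of Control. The ranges of R15 and Control overlapped as well. Of the 19 markers, 4 were higher and 8 lower in DDC against Control and 4 were higher and 2 lower in R15 against Control. Over all genes tested the shares were 33.5% higher and 31.9% lower, and 6.87% and 2.72%. The part of the hepatocyte markers in this result was not tested.

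**Figure D3:**
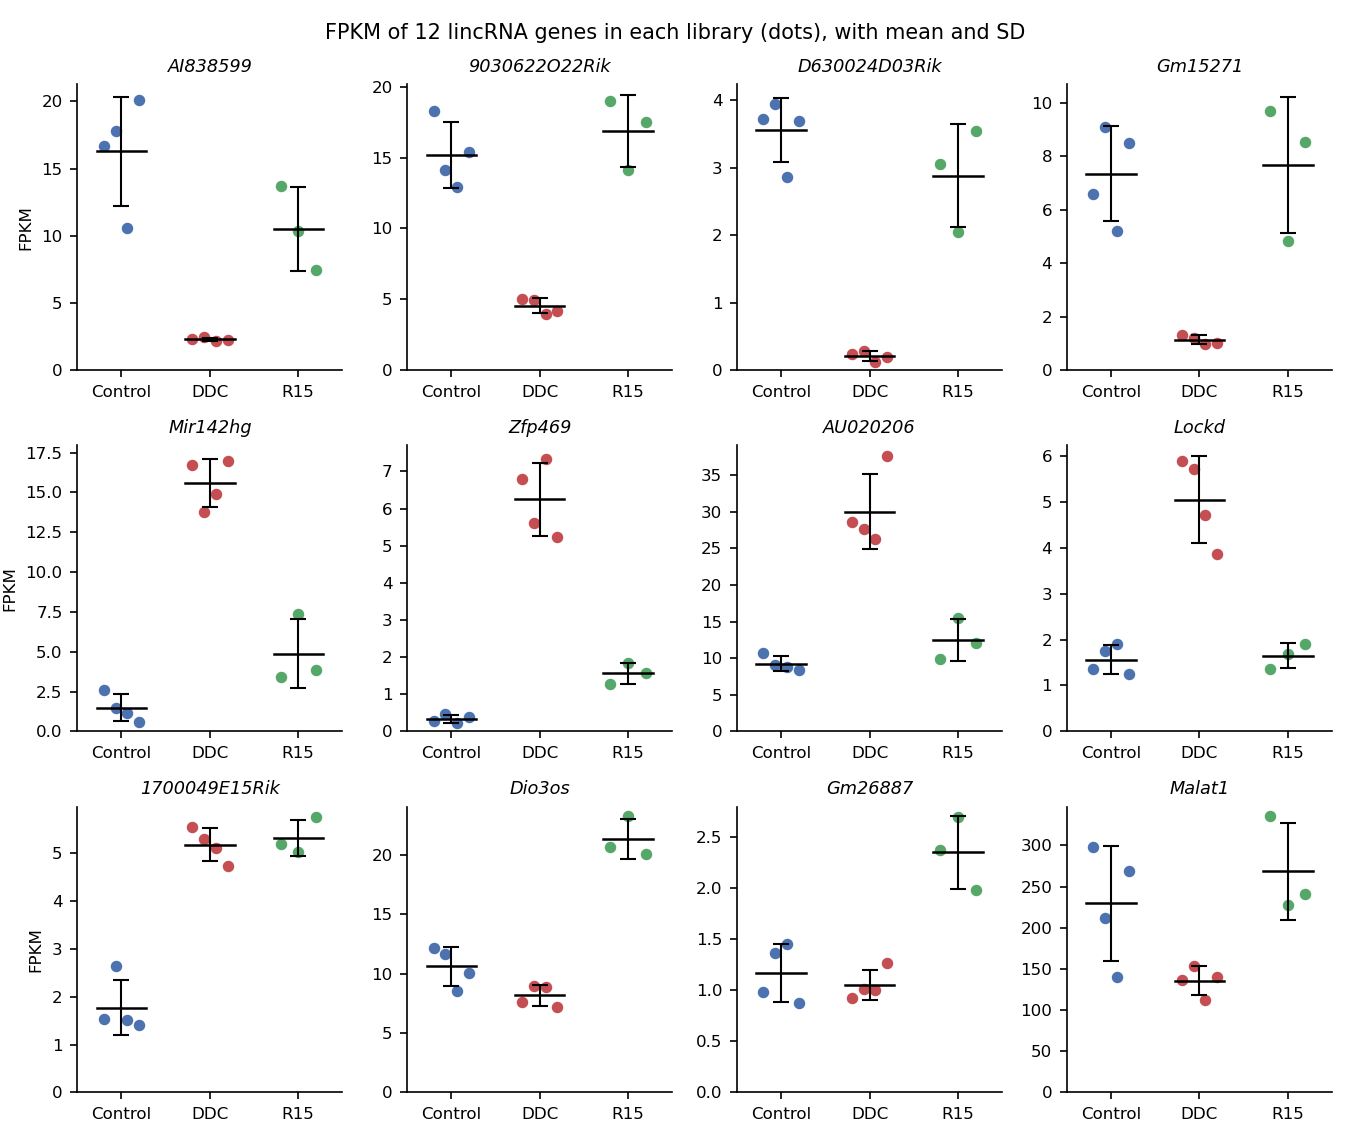
Each panel shows the FPKM of 1 lincRNA gene in every library as dots, with the group mean and SD as bars, on a linear axis from 0. The top row holds genes that were low in DDC, the middle row genes that were high in DDC, and the bottom row 1700049E15Rik, which was still high in R15, Dio3os and Gm26887, which were high in R15, and Malat1.

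The nuclear lncRNAs leaned the same way. Malat1 (ENSMUSG00000092341, chromosome 19, 5795690 to 5802672) measured 298, 212, 140 and 269 FPKM in Control, 136, 154, 112 and 140 in DDC and 336, 228 and 241 in R15. Control 3 lay within the DDC range, and every R15 library lay above it. Malat1 changed by -0.71 ± 0.22 in DDC against Control (adjusted p = 0.018) and 0.97 ± 0.24 in R15 against DDC (adjusted p = 0.0057). Without Control 4 or DDC 3 the first of these did not pass (log2 fold change -0.62, adjusted p of 0.05 to 0.051). Neat1, whose gene starts 22035 bases further along the chromosome, measured 20.8, 11.6, 11.2 and 16.1 FPKM in Control, 12, 10.9, 9.59 and 11.1 in DDC and 14.8, 8.59 and 11.9 in R15, and no comparison of it passed (-0.39 ± 0.20, adjusted p = 0.11 in DDC against Control).

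Ftx, a noncoding gene of the X inactivation centre, changed by -0.35 ± 0.09 in DDC against Control (adjusted p = 0.0045) and by 0.40 ± 0.09 in R15 against DDC. Of a list of 13 nuclear and X-linked lncRNAs, which also holds other gene types, 6 were tested. In DDC against Control 5 of these 6 were lower and 0 higher, and in R15 against DDC 5 were higher and 0 lower. Over all genes tested 31.9% were lower in the former comparison and 33.4% higher in the latter. Beside Malat1 and Ftx these were Firre, which organises chromatin in the nucleus and went from a mean of 43.9 to 25 FPKM, Tug1, from 16.4 to 13.4, and Jpx, from 1.12 to 0.8. Oip5os1, known as Cyrano, which promotes the decay of the microRNA miR-7, changed by -0.29 ± 0.06 in DDC against Control (adjusted p = 0.0014). Its neighbour Oip5, a gene of centromere assembly, went the other way, from a mean of 0.342 to 3.18 FPKM. Of 10 imprinted lncRNAs only Airn, of type antisense, reached the filter on low values, and no comparison of it passed. Of 24 lncRNAs linked to stress, growth or p53, 8 were tested, with 4 higher and 2 lower in DDC against Control, 1 and 0 in R15 against Control and 3 and 4 in R15 against DDC, against shares over all genes of 33.5% and 31.9%, 6.87% and 2.72%, and 33.4% and 28.8%.

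Of the lincRNA genes higher in DDC, Mir142hg (ENSMUSG00000084796, chromosome 11, 87755577 to 87757270) rose most on the log2(FPKM + 1) scale, while by group means, and with a pseudocount of 0.1, Zfp469 below rose more. This gene hosts miR-142, a microRNA of blood cells that is used as their marker. It measured 2.63, 1.48, 1.18 and 0.607 FPKM in Control, 16.7, 13.8, 14.9 and 17 in DDC and 3.42, 7.37 and 3.84 in R15. Every DDC library lay above every other library, and R15 2 was the highest of R15. The log2 fold change was 2.80 ± 0.25 in DDC against Control (adjusted p = 7.2e-06), -1.55 ± 0.27 in R15 against DDC (adjusted p = 0.00074) and 1.25 ± 0.27 in R15 against Control (adjusted p = 0.022). The last call is lost without Control 3 or R15 2, with log2 values of 0.97 to 1.21 and adjusted p of 0.052 to 0.066. Without the 5 libraries that held pancreatic transcripts that value was 1.92 and did not pass. The macrophage list was also highest in DDC and had R15 2 as its highest R15 library, at 850 FPKM against 163 and 200 in R15 1 and R15 3. For that list R15 1 lay within the Control range of 147 to 178, while for Mir142hg every R15 library lay above every Control library. R15 2 was the highest R15 library of other lists too. B and plasma cell markers, mostly Igkc, summed to 3889 FPKM there against 934 and 1224, and endothelial markers to 222 against 66.6 and 168. Stellate cell and fibroblast markers, mostly Rgs5, summed to 224 against 172 and 163. In DDC the B and plasma cell sum was 375 to 711 FPKM, below the 884 to 1614 of Control. The stellate sum was 420 to 507 in DDC, above the 31.7 to 61.6 of Control, but this rise rests on Rgs5. The other markers of that list summed to 5.23 to 8.31 FPKM in DDC and 3.94 to 4.66 in Control. Of its 12 markers, 8 stayed under 1 FPKM in every library. The part of these cells in the rise of Mir142hg was not tested.

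R15 2 was also the highest R15 library for further risers. AI662270 (ENSMUSG00000087107) measured 2.27, 2.02, 2.41 and 1.63 FPKM in Control, 9.4, 10.5, 10 and 13.8 in DDC and 1.55, 6.36 and 2.42 in R15, and rose by 1.95 ± 0.27 on the log2 scale (adjusted p = 0.00014). Gm20645 lies over an exon of Rel, the gene of the NF-kappaB subunit c-Rel, and measured 1.78, 1.42, 1.56 and 1.39 FPKM in Control, 5.83, 5.82, 6.76 and 6.43 in DDC and 1.68, 4.02 and 1.97 in R15. Its log2 fold change was 1.51 ± 0.17 beside 1.59 ± 0.19 for Rel. AU020206 measured 10.7, 9.1, 8.75 and 8.43 FPKM in Control, 28.6, 27.6, 26.3 and 37.6 in DDC and 9.84, 15.5 and 12.1 in R15, a log2 fold change of 1.59 ± 0.14 (adjusted p = 6.6e-06). For all 3 of these genes R15 2 was the highest R15 library. DDC 4, the highest DDC library of the macrophage list at 2690 FPKM, was the highest for AI662270 and AU020206, while Gm20645 was highest in DDC 3, where that list stood at 1705. The part of the macrophage list in these values was not tested.

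Gpr137b-ps, a pseudogene by its name, measured 1.43, 1.53, 1.66 and 1.31 FPKM in Control, 4.11, 4.37, 4.38 and 5.63 in DDC and 1.48, 2.48 and 1.52 in R15, again with DDC 4 and R15 2 on top. It rose by 1.17 ± 0.12 (adjusted p = 1.6e-05). Genes of this kind share reads with their parent gene where sequences are nearly identical, so the value is uncertain.

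Other risers differed in the order of their R15 libraries. Lockd (ENSMUSG00000098318, chromosome 6, 134929092 to 134951718) lies 3579 bases from Cdkn1b, the gene of the cell cycle inhibitor p27, and its locus is known as an enhancer of Cdkn1b in mouse red cell precursors. It measured 1.36, 1.76, 1.9 and 1.24 FPKM in Control, 5.88, 5.72, 4.72 and 3.86 in DDC and 1.36, 1.68 and 1.9 in R15. The R15 values lay within the Control range. Lockd rose by 1.23 ± 0.13 in DDC against Control (adjusted p = 1.9e-05), while Cdkn1b changed by -0.16 ± 0.05. The gene named Zfp469 in the table (ENSMUSG00000043903), typed as a lincRNA although its name is that of a zinc finger protein, had 0.277, 0.466, 0.216 and 0.391 FPKM in Control, 6.79, 5.61, 7.34 and 5.24 in DDC and 1.28, 1.83 and 1.57 in R15. No library of 1 group overlapped with another group, R15 2 was again the highest of R15, and its log2 fold change was 2.43 ± 0.11 in DDC against Control (adjusted p = 1.8e-07) and 0.93 ± 0.12 in R15 against Control (adjusted p = 0.0019). With a pseudocount of 0.1 these values were 3.88 and 1.95.

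Host genes of small RNAs, which make small nucleolar RNAs for ribosome assembly or microRNAs, were mostly higher in DDC. Of 32 such genes on a list that spans gene types, 21 were tested. In DDC against Control 15 were higher and 4 lower, and in R15 against DDC 5 were higher and 14 lower. In R15 against Control 2 were higher and 1 lower. Over all genes tested the shares were 33.5% higher and 31.9% lower, 33.4% and 28.8%, and 6.87% and 2.72% in these comparisons. Of the 7 lincRNA genes among them, Mir142hg, Snhg1, Snhg6 and Snhg12 were higher in DDC, Snhg18 and Snhg20 were lower, and Epb41l4aos did not pass. The list was drawn up with earlier results of these data known, so its count describes these genes and does not test them as a group.

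Snhg1 (ENSMUSG00000097188, chromosome 19, 8723496 to 8726442), whose introns hold small nucleolar RNAs, measured 6.7, 6.36, 7.3 and 7.8 FPKM in Control, 12.8, 12.4, 15.6 and 14.4 in DDC and 8.47, 8.95 and 7.57 in R15. It rose by 0.88 ± 0.08 in DDC (adjusted p = 9.5e-06), and its head-to-head neighbour Slc3a2, the gene of an amino acid transporter subunit, by 0.28 ± 0.09 (adjusted p = 0.021). Snhg6 measured 7.53, 10.1, 9.76 and 9.66 FPKM in Control, 15.5, 16.1, 18.2 and 15.1 in DDC and 10.6, 9.34 and 10.2 in R15, a log2 fold change of 0.75 ± 0.09. For both, every DDC library lay above every other library. Snhg12 rose less, by 0.46 ± 0.07. Its lower call in R15 against DDC (-0.24 ± 0.08, adjusted p = 0.02) is lost without DDC 3, DDC 4, R15 1 or R15 3, with log2 values of -0.22 to -0.19 and adjusted p of 0.051 to 0.08.

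Host genes of other gene types also changed. Snhg15 went from a mean of 2.42 to 7.74 FPKM, Mir22hg from 1.51 to 5.9, Snhg3 from 7.07 to 15.3 and Gas5, a host gene whose RNA accumulates when growth stops, from 31 to 41.8, and all passed. Snhg18 went the other way. It measured 40.3, 47.7, 41.6 and 41.7 FPKM in Control, 28.7, 29.6, 29.2 and 24.8 in DDC and 40.9, 39.6 and 42.5 in R15, a log2 fold change of -0.59 ± 0.07 (adjusted p = 3e-05), with every DDC library below all others. Snhg11, typed as protein-coding, fell from a mean of 1.26 to 0.103 FPKM (log2 fold change -1.03, adjusted p = 6.7e-05). Dleu2, the host of miR-15a and miR-16 in mouse and human, fell from 2.37 to 1.12 FPKM.

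**Figure D4:**
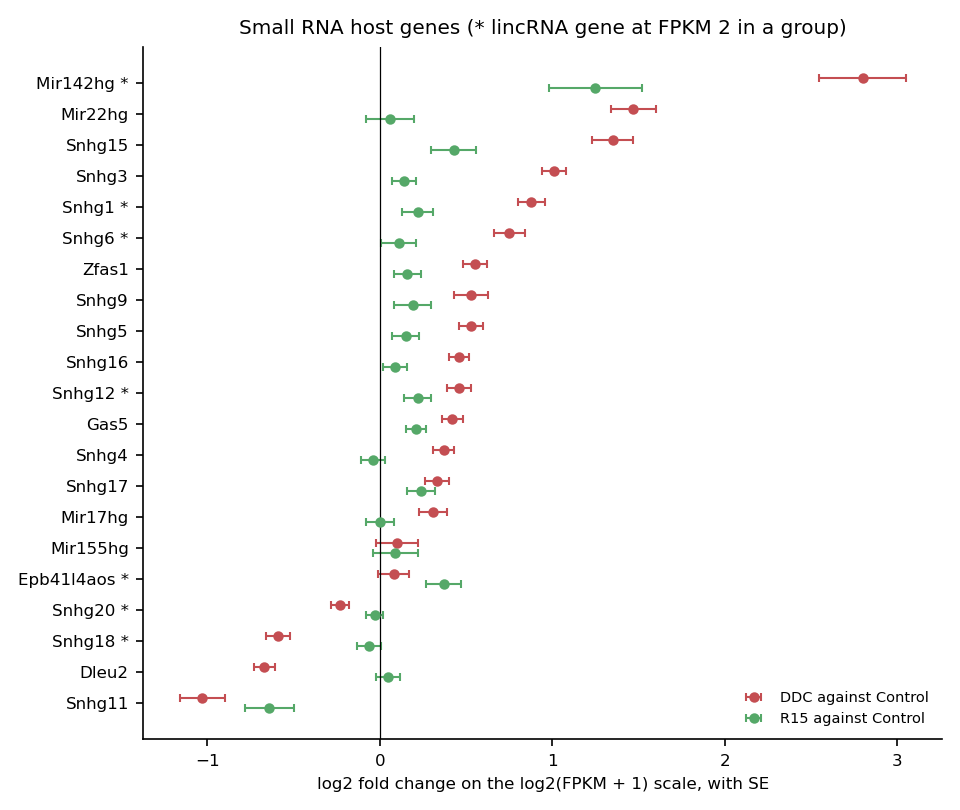
Points are log2 fold changes of the 21 tested small RNA host genes on the log2(FPKM + 1) scale, with SE as bars, for DDC against Control in red and R15 against Control in green. In DDC against Control 15 genes were called higher and 4 lower, while in R15 against Control 2 were higher and 1 lower. An asterisk marks the 7 lincRNA genes at FPKM 2 in a group.

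Small RNA genes lie inside 12 of the lincRNA genes, and for 6 of these the small RNA is a microRNA. The libraries were made from polyadenylated RNA, so the microRNAs themselves were not measured. The mature sequences are shown because the hosts moved in different directions, and capitals mark the seed, bases 2 to 8, through which a microRNA pairs with its targets. Sequences are from RefSeq on GRCm38.p6.
mmu-miR-142a-5p: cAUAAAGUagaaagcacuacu
mmu-miR-142a-3p: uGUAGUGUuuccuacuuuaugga
mmu-miR-30c-5p: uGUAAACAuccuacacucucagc
mmu-miR-101a-3p: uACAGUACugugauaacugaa
mmu-miR-374b-5p: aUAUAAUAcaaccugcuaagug
These seeds all differ. Both miR-142a arms lie in Mir142hg, which rose. The host of miR-30c here is Gm27028 (chromosome 1, 23291537 to 23291935), named after its values were seen, and it measured 12, 14.2, 9.86 and 12.9 FPKM in Control, 5.14, 5.74, 5.93 and 5.68 in DDC and 13.5, 8.69 and 12.9 in R15. Every DDC library lay below every other library, and the log2 fold change was -0.99 ± 0.14 (adjusted p = 0.00011). Ftx hosts miR-374b and is described above. E130102H24Rik, likewise named after its values were seen, hosts miR-101a and changed by -0.34 ± 0.12 (adjusted p = 0.031), and the ranges of its Control and DDC libraries, 3.09 to 4.39 and 2.32 to 3.62 FPKM, overlapped.

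Of the genes that differed in R15 against Control, 1700049E15Rik (ENSMUSG00000085077, chromosome 6, 147690241 to 147702374) was raised in both. It measured 1.53, 2.64, 1.52 and 1.41 FPKM in Control, 5.55, 5.3, 5.12 and 4.73 in DDC and 5.2, 5.02 and 5.75 in R15. The log2 fold change was 1.17 ± 0.12 in DDC against Control (adjusted p = 1.7e-05), 1.21 ± 0.13 in R15 against Control (adjusted p = 0.00086) and 0.03 ± 0.13 in R15 against DDC, which did not pass. It was the higher call that passed without the 5 libraries that held pancreatic transcripts. Gm5914, over exons of Agrp and Ctcf, changed by 0.37 ± 0.07 in DDC and by 0.43 ± 0.07 in R15, each against Control. Dubr changed by 0.37 ± 0.08 and 0.43 ± 0.09, and its R15 call is lost without R15 1 or R15 2 (log2 values of 0.34 to 0.45, adjusted p of 0.052 to 0.06).

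Dio3os and Gm26887 were high in R15 alone. Dio3os (ENSMUSG00000097758, chromosome 12, 110275384 to 110278068) runs head to head with Dio3, the gene of the deiodinase that inactivates thyroid hormone. It measured 12.2, 11.7, 8.52 and 10.1 FPKM in Control, 7.63, 8.95, 8.92 and 7.23 in DDC and 20.7, 23.3 and 20.1 in R15. Every R15 library lay above all others. It was higher by 0.95 ± 0.12 on the log2 scale in R15 against Control (adjusted p = 0.0016) and 1.29 ± 0.12 in R15 against DDC (adjusted p = 1.4e-05). Its lower call in DDC against Control (-0.33 ± 0.11, adjusted p = 0.02) is lost without Control 1, Control 2, DDC 1 or DDC 4, with log2 values of -0.30 to -0.27 and adjusted p of 0.052 to 0.057. Dio3 itself had means of 1.97, 1.48 and 2.55 FPKM, and its R15 against DDC value of 0.51 ± 0.34 did not pass.

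Gm26887 (chromosome 8, 84192774 to 84197667) measured 0.985, 1.36, 1.45 and 0.869 FPKM in Control, 0.926, 1.01, 0.999 and 1.26 in DDC and 2.37, 2.69 and 1.98 in R15. It was higher in R15 by 0.63 ± 0.12 against Control (adjusted p = 0.012), on a median of 39 reads per library. The next lincRNA gene, Gm26532, lies 11252 bases further along and moved otherwise: it measured 2.94, 3.18, 3.39 and 4.33 FPKM in Control, 7.9, 7.18, 8.77 and 8.2 in DDC and 3.65, 3.33 and 2.71 in R15. Its log2 fold change was 1.02 ± 0.10 in DDC against Control and -0.07 ± 0.11 in R15 against Control, which did not pass. Gm21807 and Epb41l4aos were also called higher in R15 against Control, by 0.54 and 0.37. The Gm21807 call is lost without Control 1 or any 1 of the 3 R15 libraries (log2 values of 0.45 to 0.58, adjusted p of 0.05 to 0.1).

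Epb41l4aos was the least stable of these calls. It measured 10.9, 12.3, 14.8 and 13.7 FPKM in Control, 13.7, 14.2, 12.8 and 13.6 in DDC and 14.9, 19.1 and 16.8 in R15. Its R15 against Control call (adjusted p = 0.047) is lost without any 1 of 9 libraries, all but Control 3 and R15 1, with log2 values of 0.28 to 0.40 and adjusted p of 0.06 to 0.14. Its R15 against DDC call (0.29, adjusted p = 0.027) is lost without DDC 3, DDC 4, R15 2 or R15 3 (0.21 to 0.29, adjusted p of 0.051 to 0.11). The lower calls in R15 against Control, beside RP24-468O23.2, were Gm15889 at -0.46 ± 0.10 (adjusted p = 0.024) and Gm14321 at -0.43 ± 0.11 (adjusted p = 0.036). That of Gm15889 is lost without Control 1, R15 1 or R15 3 (-0.45 to -0.42, adjusted p of 0.056 to 0.08). That of Gm14321 is lost without any 1 of 7 libraries, Control 1, Control 2, Control 4, DDC 1, DDC 4, R15 1 and R15 2 (-0.46 to -0.32, adjusted p of 0.051 to 0.1).

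The steadiest genes at 2 or more in every group were 2010320M18Rik, which ran from 6.64 to 8.68 FPKM over the 11 libraries, Gm13056 from 4.75 to 6.53, Cep83os from 3.59 to 4.78, Snora43 from 2.29 to 2.96 and Gm26908 from 1.94 to 3.19. No comparison of them passed. They were chosen for the small range of their group means, so this describes them and is no test. Tmem250-ps, a pseudogene by its name, was also close to level, at 24.8 to 27.9 FPKM in Control, 21.5 to 23.3 in DDC and 24.4 to 26.9 in R15, although its small fall in DDC passed (-0.22 ± 0.05, adjusted p = 0.0023). Without the 5 libraries that held pancreatic transcripts it was -0.14 and did not pass (adjusted p = 0.123).

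The changes of a lincRNA gene and its nearest coding gene were weakly related. For 96 pairs in which both were tested, Pearson's r between the 2 log2 fold changes in DDC against Control was 0.0847 and Spearman's rho 0.0805, given as a description because genes are not independent replicates. Of 49 lower lincRNA genes in these pairs, 20 had a lower neighbour, 40.8%, against 39.6% of all 96 pairs. Of 22 higher ones, 8 had a higher neighbour, 36.4% against 26%. In the 29 head-to-head pairs, with starts within 1000 bases on opposite strands, r was 0.239. The partner there was the coding gene with the nearest start, which need not be the nearest gene. The 73 nearest-gene pairs free of shared coding exons had an r of -0.174. Over the same 96 pairs r was 0.338 (rho 0.226) in R15 against Control and 0.0699 (rho 0.14) in R15 against DDC, and the head-to-head pairs had 0.271 and 0.352. These comparisons share libraries. Pairs that went together (Foxa2, Onecut1, Gata6) therefore stand beside pairs that did not, such as Mir142hg at 2.80 with Tspoap1 at -1.54.

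**Figure D5:**
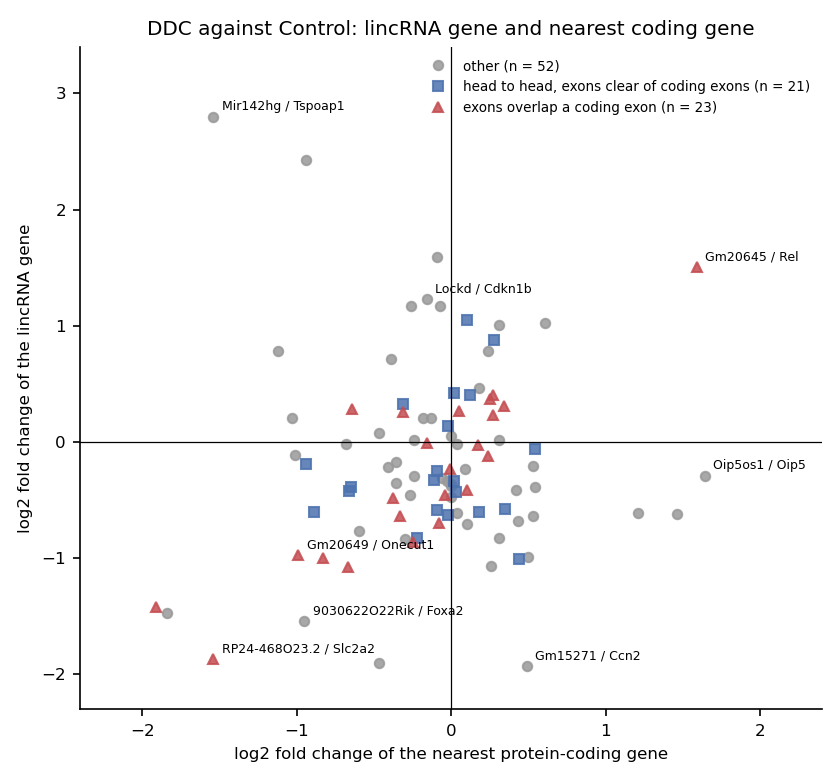
Each point is 1 lincRNA gene with its nearest protein-coding gene, with the log2 fold change of the coding gene in DDC against Control on the x axis and that of the lincRNA gene on the y axis. Red triangles mark lincRNA genes whose exons overlap a coding exon, and blue squares mark other lincRNA genes with a head-to-head coding gene. The 96 points show no common slope (r = 0.0847), and Gm20645 with Rel and RP24-468O23.2 with Slc2a2, both sharing exon bases, lie towards opposite corners.

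Exon sharing limits some of these values. By the GENCODE M21 gene models, the exons of 26 of the 116 (the whole span for the 13 genes not matched) overlap an exon of a coding gene, 4 of them on the same strand, and whether the authors counted by strand is not stated in the labels. Among the 89 tested genes clear of coding exons 48 were lower and 20 higher in DDC against Control, and among the 26 others 11 were lower and 6 higher. Over all genes tested 31.9% were lower and 33.5% higher. The median log2 fold change was -0.31 for the 89 genes and -0.095 for the 26. The gene models have since changed: of 100 genes found by ID in GENCODE M21, 73 are still lincRNA, 9 antisense, 8 of bidirectional promoters and 2, Naaladl2 and Kantr, protein-coding. The 59 lower genes had a median length of 1729 bases, the 26 higher ones 1931 and the 30 others 1255. A head-to-head coding gene was found for 28.3% of the lower genes with a known strand, 20.8% of the higher and 36% of the rest.

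NF-Y binds the sequence CCAAT, so promoter windows were searched for CCAAT and its reverse complement ATTGG. RefSeq windows, from 250 bases before to 50 bases after a gene's start, were found for 67 of the 116 genes. Of these, 27 held the motif on either strand in a window, 40.3%, against 41.1% of the 27025 genes of the same table. The share was 37.5% of 16 higher genes, 41.2% of 34 lower genes and 41.2% of 17 genes not called in DDC against Control. A match is a run of letters and not a site. Windows with matches are shown for 2 risers and 1 faller, with CCAAT or ATTGG in capitals, from RefSeq on GRCm38.p6. They are chr6:134928842-134929141 (plus strand) for Lockd, chr7:75782071-75782370 (minus strand) for AU020206 and chr2:119594046-119594345 (plus strand) for Oip5os1.
Lockd: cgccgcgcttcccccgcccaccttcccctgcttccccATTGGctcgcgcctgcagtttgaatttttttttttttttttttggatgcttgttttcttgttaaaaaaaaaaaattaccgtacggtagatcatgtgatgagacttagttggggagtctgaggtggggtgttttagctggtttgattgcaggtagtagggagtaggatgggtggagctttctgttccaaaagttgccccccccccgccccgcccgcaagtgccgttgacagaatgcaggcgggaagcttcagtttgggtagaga
AU020206: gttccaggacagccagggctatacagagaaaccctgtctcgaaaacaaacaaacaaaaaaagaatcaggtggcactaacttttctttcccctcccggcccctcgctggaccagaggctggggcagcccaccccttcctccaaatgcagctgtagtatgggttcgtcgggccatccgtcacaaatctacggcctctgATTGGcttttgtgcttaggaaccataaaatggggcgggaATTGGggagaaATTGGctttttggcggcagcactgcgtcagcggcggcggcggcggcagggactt
Oip5os1: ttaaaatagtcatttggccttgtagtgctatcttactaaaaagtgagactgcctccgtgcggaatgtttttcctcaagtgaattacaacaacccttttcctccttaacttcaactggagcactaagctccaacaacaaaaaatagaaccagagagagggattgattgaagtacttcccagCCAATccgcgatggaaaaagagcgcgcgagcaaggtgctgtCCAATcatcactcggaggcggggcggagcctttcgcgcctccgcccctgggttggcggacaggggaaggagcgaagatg
The window of AU020206 holds ATTGG 3 times, that of Lockd ATTGG 1 time, and that of Oip5os1 CCAAT 2 times. Snhg1, Snhg12 and Malat1 hold neither in their windows.

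One of the 116 genes, Gm3054, did not pass the filter on low values and was not tested. It measured 8.44, 0, 5.65 and 0.224 FPKM in Control and at most 0.735 in any other library. Its place among the genes rests on Control 1 and Control 3, and its nearest coding gene, Muc3, is that of an intestinal mucin.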

How the data were processed

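Gene expression was measured in 11 libraries, 1 per mouse, prepared with Illumina Stranded mRNA Prep, per the labels' protocols. FPKM values, made by the authors, came as 1 merged table that also lists gene type, length and position; the build is mm10, per the submitters' processing notes. No aligner, counter or gene models are named there. Whole reads recovered from FPKM and length (all values whole within 0.001) gave the depth and an alternative test. Values were analysed as log2(FPKM + 1) with limma 3.58.1 in R 4.3.3, with an intensity trend and 1 model over all 11 libraries. Filter, adjustment and threshold are given with the first result. The p-values of limma weigh a difference between groups against the spread between mice. That spread is pooled over the groups and drawn towards a trend over all genes tested. The table was joined to GENCODE M21 gene models, and sequences are from RefSeq. The lincRNA genes and gene lists were chosen with earlier results of these data known. Genes named were the 10 with the highest mean level, in each comparison the 8 largest rises and falls that passed without overlap of the groups and up to 4 further ones with a proper symbol, the 5 steadiest, those nearest the limit, those on the lists, neighbouring coding genes, and genes stated to be chosen after their values were seen. The code was tested on simulated data. Alternatives covered the pseudocount, filter, scaling, a whole-read test, a limit on fold change, a replicate block and leaving out each library.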

Additional observations from a re-analysis of the deposited data

Results flagged for a closer look

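In groups of 4 mice, 7 of the 102 groups looked at held 1 library that stood apart from the other 3 by Dixon's criterion at the 95% level, and chance gives about 1 in 20. Control 3 was the low library for Gm14321, at 2.64 FPKM against 3.15 to 3.16, for Gm29095, at 1.71 against 3.18 to 3.44, and for Gm26908, at 2.18 against 2.63 to 2.65. Control 4 was high for Snhg12, at 10.4 FPKM against 9.85 to 9.9. Control 2 was high for 1700049E15Rik, at 2.64 FPKM against 1.41 to 1.53. DDC 3 was low for Gm21807, at 1.6 FPKM against 2.16 to 2.24, and for Gm20649, at 33.9 against 37.2 to 37.7.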

How the results depend on the processing

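Of 153 log2 fold changes of 51 named genes, 2994 values under alternatives included 0 that turned sign after a call, 84 that lost a call and 26 that gained one. With an absolute log2 fold change of at least 1, 11 genes were higher and 13 lower in DDC against Control, 2 and 0 in R15 against Control, and 8 and 8 in R15 against DDC. With the filter at FPKM 5, these counts were 13 and 29 for DDC against Control, 6 higher in R15 against Control, and 33 and 10 in R15 against DDC. With genes chosen at FPKM 5 they were 14 and 27, 6 higher, and 32 and 11, and both settings test fewer genes. In R15 against Control, quantile normalization gave 8 higher, and rescaling each library to one total gave 1 lower. Rescaling also moved the median of all genes in R15 against DDC from 0.035 to 0.135. Without the 5 libraries that held pancreatic transcripts, an alternative chosen after seeing the data, 15 genes were higher in DDC against Control, and 1 was higher and 0 lower in R15 against Control; the 1 Control library left is assumed to vary like the other groups. Leaving out 1 library at a time gave 8 to 13 higher and 0 to 4 lower in R15 against Control. The replicate numbers did not pair the libraries (correlations of -0.282 to 0.300), and a fit with the replicate block gave 8 higher and 0 lower there. The cause of these shifts was not tested. Depth limits the lowest genes: 17 of the 116 had a median under 100 reads per library.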

Other observations

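Some expressed lincRNA genes lie close together, and such neighbours did not always move by the same amount. On chromosome 11, 2610035D17Rik and 4732490B19Rik lie 1476 bases apart and had log2 fold changes of -0.64 and -0.21 in DDC against Control. On chromosome 6, 2310040G24Rik and 1600020E01Rik lie 38043 bases apart and stood at 0.02 and -0.41. On chromosome 7 a pair of IDs that share the symbol Gm4790 and the gene 6230415J03Rik lie in a row. They stood close to each other, at -0.36, -0.47 and -0.38. These pairs were picked by distance alone.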
